A study of Mus musculus with 4 samples.

Results

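The proteasome and the enzymes that hand ubiquitin to its substrates were followed in mouse visual cortex after the loss of 1 eye. Their genes were taken from the array's annotation by symbol: the proteasome subunits and activators (Psma to Psme, without the inducible subunits Psmb8 and Psmb9), the ubiquitin-conjugating enzymes (Ube2) and the ubiquitin C-terminal hydrolases (Uch). This gave 63 genes of 8251 named on the array, read by 82 of 12488 probe sets, and each gene was represented by the probe set with the highest mean signal over the 4 arrays. Signal was high enough to test in 54 of the 63. These were 15 of 15 core particle genes, 17 of 20 regulatory particle genes, 3 of 3 activators and 18 of 23 ubiquitin enzymes. The symbol pattern also took in Psmc3ip and Psme3ip1, which encode proteins that bind the complex or its relatives and are not subunits, and of these Psme3ip1 was tested.

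All animals were wild-type C57Bl6 mice that had been kept in darkness since birth, lost an eye by enucleation at postnatal day 42 and were studied at postnatal day 46, after 4 days of ordinary light and dark. The deprived group (2 arrays) was visual cortex contralateral to the removed eye, and the non-deprived group (2 arrays) was the ipsilateral cortex. Both groups therefore shared the dark rearing, the surgery and the first exposure to light. Tissue of 5 mice was pooled, and the labels do not say how the mice were divided over the arrays. The p-values therefore measure only the spread between these arrays, which may be technical. Standard errors, intervals and p-values come from a fit that leaves out any pairing of the arrays, unless the replicate block is named. Each array gave MAS5 signals in arbitrary units, and array number limits the precision.

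The 26S proteasome is the main machine for selective protein breakdown in the cytosol and nucleus. Its barrel-shaped core particle carries the proteolytic sites on beta subunits inside a ring of alpha subunits, and its regulatory particle recognises ubiquitin, unfolds the substrate with a ring of ATPases and feeds it into the core. Ubiquitin is passed from an activating enzyme (E1) to a conjugating enzyme (E2) and then, with a ligase (E3), to the substrate, and deubiquitinases take it off again. In neurons this system turns over synaptic proteins, and the deubiquitinase Uchl1 is among the abundant neuronal proteins.

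Transcription factors of the Nfe2l1 and Nfe2l2 type are known to bind antioxidant response elements before proteasome genes, so the promoters were read for the core of that element, TGACNNNGC, for the CCAAT box and for the ETS-family motif CCGGAAG, each on both strands. RefSeq promoters (GRCm38.p6, 250 bases before to 50 after the start) matched 52 of the 63 genes with 61 windows. TGACNNNGC was found in 14.8% of these windows, in 12.4% of all 32851 promoter windows and in 13.7% of those of the genes tested on the arrays. CCAAT was found in 31.1%, against 37.4% and 36.7%. CCGGAAG was found in 34.4%, against 8.86% of all windows and 16.6% of the windows of the genes tested on the arrays. The ETS motif stood in 10 of 18 windows of the regulatory particle, 6 of 24 of the ubiquitin enzymes and 1 of 13 of the core particle. A match describes letters and does not show binding. The 250 bases before the start of 4 genes are shown because they hold the matches of the proteolytic subunits Psmb5 and Psmb6 and those of Psmd11 and Psmd6, which are described below. Capitals mark TGACNNNGC in the first pair and CCGGAAG, in either orientation, in the second pair.
Psmb5: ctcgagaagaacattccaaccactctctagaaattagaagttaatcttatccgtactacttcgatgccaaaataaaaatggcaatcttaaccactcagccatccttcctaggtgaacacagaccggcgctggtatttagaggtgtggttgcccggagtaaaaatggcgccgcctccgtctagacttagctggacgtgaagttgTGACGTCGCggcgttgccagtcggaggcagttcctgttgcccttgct
Psmb6: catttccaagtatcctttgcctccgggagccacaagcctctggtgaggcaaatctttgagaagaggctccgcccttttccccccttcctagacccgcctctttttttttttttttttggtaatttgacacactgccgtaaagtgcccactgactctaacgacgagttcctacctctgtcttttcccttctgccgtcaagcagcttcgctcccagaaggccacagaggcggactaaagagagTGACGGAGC
Psmd11: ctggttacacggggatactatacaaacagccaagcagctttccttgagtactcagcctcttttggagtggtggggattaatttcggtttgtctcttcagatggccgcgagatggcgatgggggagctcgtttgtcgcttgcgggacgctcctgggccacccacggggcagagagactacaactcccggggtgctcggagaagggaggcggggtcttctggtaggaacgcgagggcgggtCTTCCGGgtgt
Psmd6: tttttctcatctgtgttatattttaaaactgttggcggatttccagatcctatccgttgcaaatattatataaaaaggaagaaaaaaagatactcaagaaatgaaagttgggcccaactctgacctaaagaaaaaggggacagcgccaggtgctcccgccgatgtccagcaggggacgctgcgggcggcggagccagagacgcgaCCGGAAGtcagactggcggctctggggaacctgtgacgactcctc
The Psmb5 stretch is chr14:54617996-54618245 on the minus strand with the match at position -47 from the start, and the Psmb6 stretch is chr11:70525107-70525356 on the plus strand with the match at position -9. The Psmd11 stretch is chr11:80428365-80428614 on the plus strand with the match at position -11, and the Psmd6 stretch is chr14:14120946-14121195 on the minus strand with the match at position -45.

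The comparison asked whether cortex that lost its main eye's input held different levels of these transcripts from cortex that kept it. No proteasome or ubiquitin gene passed the threshold. In limma's fit over all 7458 tested probe sets 0 of the 54 genes had an adjusted p under 0.05, where 0.0885% of all 5649 tested genes did, and 0 passed with the replicate number as a block (0.46% of all genes). At an unadjusted p under 0.05 there was 1 higher member, Ube2k, and no lower one (4.92% of all genes in either direction, 1.73% higher and 3.19% lower). With the block there were 2, Ube2k and Psmd11, against 8.43% of all genes. The median log2 fold change, deprived minus non-deprived, was 0.034 over the 54 genes and 0.0057 over all tested genes. Of the 54, 31 lay above 0 (57.4%, against 50.8% of all genes) and 23 below (42.6%, against 49.2%). A log2 fold change beyond 0.5 in either direction was found for 2 of them, Ube2c and Ube2k (3.70%, against 12.6% of all genes). Log2 fold changes are on the log2(signal + 60.6) scale throughout, on which changes of dim probe sets come out too small.

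The estimated differences of these genes were small on these arrays, and their intervals cover only the spread between the arrays. All genes, set beside them here, were not matched to them for signal. The median size of the log2 fold change, without its sign, was 0.11 over the 54 genes and 0.18 over all tested genes, while the median standard error was 0.20 and 0.27. For 49 of the 54 genes the 95% interval of the log2 fold change lay wholly between -1 and 1, as it did for 65.1% of all genes. The 5 exceptions were Psme1, Psme4, Ube2c, Ube2k and Uchl5. These intervals are not adjusted for the number of genes, and a p above the threshold does not show that the groups were equal. In 13 members the arrays of the groups did not overlap (31.7% of all genes), 10 with both deprived arrays higher (15.4% of all genes) and 3 with both lower (16.4% of all genes). Higher members came to 18.5% of the 54 and lower ones to 5.56%.

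**Figure D1:**
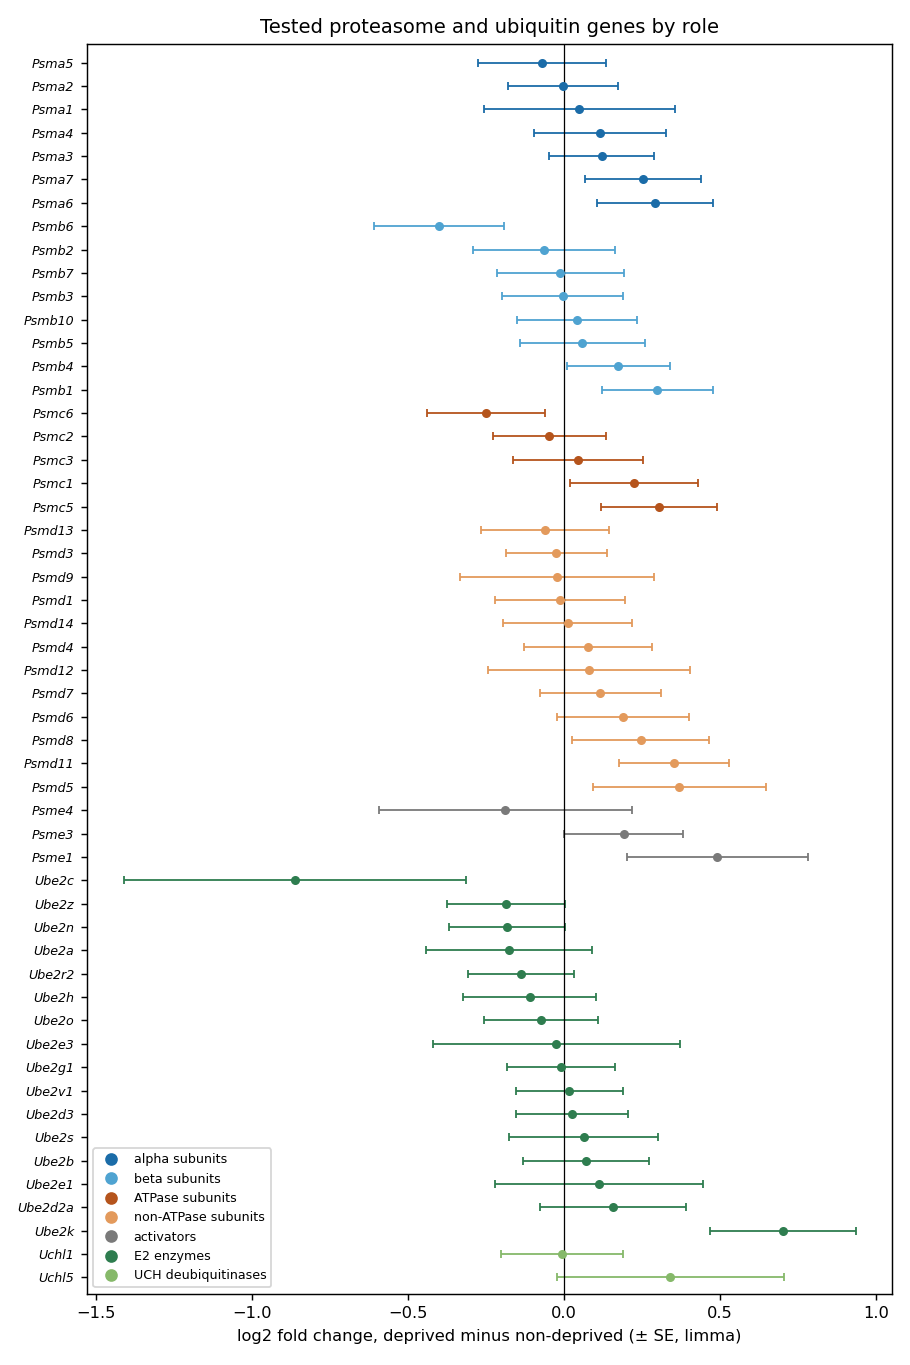
Log2 fold change (deprived minus non-deprived, horizontal axis) of the tested genes that encode subunits, activators or ubiquitin enzymes, ordered and coloured by role; points are limma estimates and bars are ± 1 SE, with 2 arrays per group. Most points lie within 0.4 of 0, Ube2c (-0.86) and Ube2k (0.70) lie farthest out, and none passed the adjusted threshold.

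The arrays of a group differed from each other. The core particle was highest on deprived array 2 in 10 of 15 genes (66.7%, against 25.6% of all genes). The regulatory particle was highest there in 7 of 17 and the ubiquitin enzymes in 7 of 18. Ubiquitin enzymes were lowest on deprived array 1 in 10 of 18 genes (55.6%, against 29.4% of all genes).

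**Figure D2:**
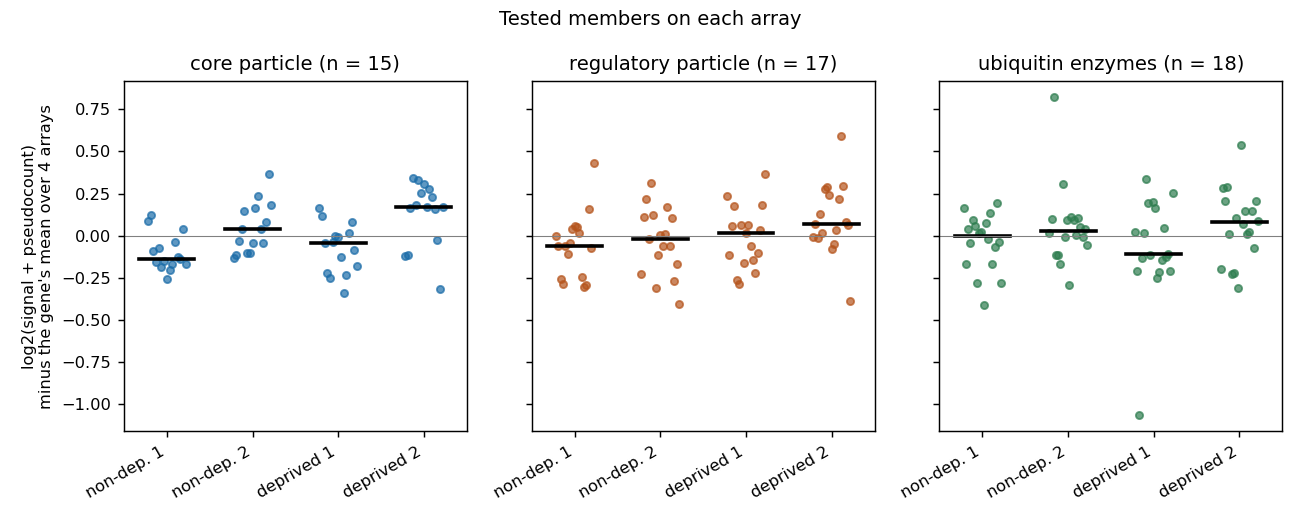
Log2(signal + 60.6) of each tested gene minus that gene's mean over the 4 arrays (vertical axis), on each of the 2 non-deprived and 2 deprived arrays; points are genes and black lines are medians. The core particle median is 0.17 on deprived array 2 and -0.047 on deprived array 1, and lies at -0.14 and 0.041 on non-deprived arrays 1 and 2, so the groups overlap.

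The core particle as a whole showed no difference beyond the spread between arrays. Of its 15 genes 9 were higher and 6 lower in deprived cortex, with a median of 0.048, and 0 passed. With the arrays scaled to a common median the split was 12 higher and 3 lower. The median was 0.23 without deprived array 1 and 0.16 without non-deprived array 2, but 0.014 without deprived array 2 and 0.015 without non-deprived array 1.

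Alpha subunits form the outer rings of the barrel and the gate through which substrates enter. Of the 7 genes 5 were higher and 2 lower, with a median of 0.11 and a range from -0.071 for Psma5 to 0.29 for Psma6. Psma6 had signals of 1589 and 2074 in deprived cortex (arrays 1 and 2, in this order throughout) and of 1429 and 1519 in non-deprived cortex. Both deprived arrays were higher, by little for the first of them. Its log2 fold change was 0.29 ± 0.19 (SE; limma adjusted p = 0.99). Psma7 had 1195 and 1439 in deprived and 1070.1 and 1111 in non-deprived cortex, also without overlap, at 0.25 ± 0.19. Psma3, the brightest alpha probe set, stood at 0.12 ± 0.17 and Psma2 at -0.0024 ± 0.18. Psma2 signals were 2260 and 1918 in deprived and 2270.3 and 1916 in non-deprived cortex, so the arrays with the same number matched almost exactly while the numbers differed.

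Beta subunits hold the proteolytic sites. Of the 8 genes 4 were higher and 4 lower, with a median of 0.018. Psmb6, the subunit with caspase-like activity, had 859.7 and 724 in deprived and 942 and 1197 in non-deprived cortex. Both deprived arrays lay below both non-deprived arrays, and Psmb6 was the lowest member of the whole proteasome by log2 fold change, at -0.40 ± 0.21 (SE; limma adjusted p = 0.95; 95% interval -0.86 to 0.055). Psmb5, with chymotrypsin-like activity, had 957 and 885 in deprived and 811 and 956 in non-deprived cortex. Those arrays overlapped, and its brightest probe set gave 0.059 ± 0.20 and the other 0.14 ± 0.28. Psmb7, with trypsin-like activity, gave -0.012 ± 0.20, from 1132 and 1461 in deprived and 1142 and 1475 in non-deprived cortex. The estimates of the 3 proteolytic subunits thus lay on both sides of 0, with intervals that all held 0.

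The structural beta subunits Psmb1 and Psmb4 lay on the other side of 0 from Psmb6. Psmb1 had 2845 and 3554 in deprived and 2387 and 2774 in non-deprived cortex, without overlap, for 0.30 ± 0.18 (SE; limma adjusted p = 0.98). Its dimmer tested probe set gave 0.31 ± 0.21, also without overlap, from 840.1 and 1056 in deprived and 789.9 and 712 in non-deprived cortex. Psmb4 gave 0.17 ± 0.16 without overlap. Psmb10, the inducible counterpart of Psmb7, gave 0.042 ± 0.19, and Psmb2 and Psmb3 gave -0.063 and -0.0048.

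In the regulatory particle 11 of 17 tested genes were higher and 6 lower, with a median of 0.076, and 0 passed. The median of its genes' deviations from their own means over the arrays was 0.015 and 0.069 in deprived and -0.061 and -0.018 in non-deprived cortex. These array medians did not overlap, and the median log2 fold change was larger than their spread within a group (SD 0.035). Taken separately, the ATPases had array medians of 0.060 and 0.014 in deprived and -0.062 and 0.11 in non-deprived cortex (SD 0.088). The non-ATPase subunits had -0.023 and 0.15 in deprived and -0.013 and -0.062 in non-deprived cortex (SD 0.090). Both of these overlapped between the groups, and none of the sets was tested. The median log2 fold change of the regulatory particle was 0.14 without deprived array 1 and -0.0099 without deprived array 2. Without deprived array 2, 8 of the 17 genes were higher and 9 lower. The positive median log2 fold change thus depended on that array. The array median of deprived array 1 still lay above both non-deprived ones.

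The ATPases Psmc1 to Psmc6 form the ring that unfolds substrates. Psmc5, which is known as a target of CaM kinase at synapses, had 1400.0 and 1357 on the deprived arrays and 1002 and 1218 on the non-deprived arrays. Both deprived arrays were higher, and the log2 fold change was 0.30 ± 0.19 (SE; limma adjusted p = 0.99). Psmc6 lay the other way at -0.25 ± 0.19, with 1744 and 2125 in deprived and 2014 and 2624 in non-deprived cortex, where the groups overlapped. Psmc1 stood at 0.23, Psmc2 at -0.047 and Psmc3 at 0.044, and Psmc4 was too dim to test. Subunits of the same ring thus spanned -0.25 to 0.30.

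The genes counted as non-ATPase subunits, by symbol, encode parts of the lid and the base, including ubiquitin receptors. They also encode assembly chaperones, which are not parts of the finished particle. Of 12 tested genes 8 were higher and 4 lower, with a median of 0.079. Psmd11, a scaffold of the lid, had 3159 and 3712 in deprived and 2934 and 2426 in non-deprived cortex at its brightest probe set. These arrays did not overlap, at 0.35 ± 0.18 (SE; limma adjusted p = 0.94, unadjusted p = 0.069). With the replicate block the unadjusted p was 0.044 and the adjusted p 0.52. The other 2 Psmd11 probe sets lay on the other side of 0, at -0.46 ± 0.31 and -0.17 ± 0.29.

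Psmd5, a chaperone of base assembly, had the largest value of the genes counted with the regulatory particle, at 0.37 ± 0.28 (limma adjusted p = 0.999). Its signals were 572 and 1055 in deprived and 537 and 646 in non-deprived cortex. The groups overlapped, and deprived array 2 alone was high: without deprived array 1 the log2 fold change was 0.78 (adjusted p = 0.20). Psmd3, a lid subunit, had 2333 and 2496 in deprived and 2465 and 2449 in non-deprived cortex, for -0.025 ± 0.16. Psmd4, a ubiquitin receptor, and Psmd14, the deubiquitinase of the lid, gave 0.076 ± 0.20 and 0.011 ± 0.21. Psmd6 and Psmd8 gave 0.19 and 0.25. Psmd9, another assembly chaperone, was singled out after its values were seen. It had 987 and 1034 on deprived array 1 and non-deprived array 1, and 559 and 552 on the arrays numbered 2, so it followed the array number and not the side of the brain (-0.024 ± 0.31). Psmd2 and Psmd10 were too dim to test.

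Activators cap the core in place of the regulatory particle. Psme1, a subunit of the interferon-inducible PA28 cap, had 477 and 453 in deprived and 270.4 and 362 in non-deprived cortex. Both deprived arrays were higher, at 0.49 ± 0.29 (SE; limma adjusted p = 0.98; 95% interval -0.14 to 1.13). Psme3, a nuclear relative, had 1109 and 1317 in deprived and 981 and 1127 in non-deprived cortex, which overlapped, for 0.19 ± 0.19. Psme4, a nuclear activator of a different build, gave -0.19 ± 0.41, with 159 on deprived array 1 and 252 to 294 on the other 3. Psme2, the partner of Psme1, was not analysed here because its probe sets carried several gene names.

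The ubiquitin enzymes had a median of -0.0080, with 8 higher and 10 lower of 18 tested genes, and 0 passed. With the arrays scaled to a common median the split was 10 higher and 8 lower. The median was 0.035 without deprived array 1, -0.093 without deprived array 2, -0.066 without non-deprived array 1 and -0.0088 without non-deprived array 2.

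Ube2k, an E2 that builds the ubiquitin chains that mark proteins for the proteasome, had the smallest p of all members. Its brighter probe set gave 712 and 941 on the deprived arrays and 459 and 503 on the non-deprived arrays. Both deprived arrays lay above both non-deprived arrays, a difference of 1.63-fold with a log2 fold change of 0.70 ± 0.23 (SE; 95% interval 0.19 to 1.21). The unadjusted p was 0.012 and the limma adjusted p 0.60, or 0.24 with the replicate block. The lowest adjusted p over all alternatives run was 0.14, without deprived array 1. Its unadjusted p was 0.082 without deprived array 2 and 0.054 without non-deprived array 1, so it lost that level in both of these fits. The dimmer probe set, annotated to the same GenBank sequence, had 401 and 311 in deprived and 547 and 321 in non-deprived cortex, for -0.22 ± 0.32, so it did not repeat the difference.

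Ube2c, which serves the anaphase-promoting complex, had the largest lower value at -0.86 ± 0.55 (limma adjusted p = 0.99; 95% interval -2.07 to 0.34). Its signals were 55.3 and 219 in deprived and 189 and 369 in non-deprived cortex, close to the minimum for testing, and the groups overlapped. Without deprived array 2 it was lower with an unadjusted p of 0.014 and a limma adjusted p of 0.23. Ube2n, which builds signalling chains with Ube2v1, had 1178 and 1487 in deprived and 1490.4 and 1532 in non-deprived cortex, for -0.18 ± 0.18. Those groups did not overlap, though the second deprived array lay just under the first non-deprived array. Ube2v1 gave 0.017 ± 0.17. Ube2b, a DNA-repair E2, gave 0.070 ± 0.20 and Ube2o, a large E2 with ligase activity, -0.075 ± 0.18. The other E2 enzymes ran from -0.19 for Ube2z to 0.16 for Ube2d2a.

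The deubiquitinases of the Uch family were Uchl1 and Uchl5. Uchl1 had 6173 and 8255 in deprived and 6984 and 7371 in non-deprived cortex. The deprived arrays lay on either side of both non-deprived arrays, and the log2 fold change was -0.0072 ± 0.20 (SE; 95% interval -0.43 to 0.42; limma adjusted p = 0.999). Uchl5, which binds the regulatory particle, had 319 and 278 in deprived and 201 and 245 in non-deprived cortex. These did not overlap, at 0.34 ± 0.36 (95% interval -0.45 to 1.14). Uchl3 and Ube2m were not analysed here.

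**Figure D3:**
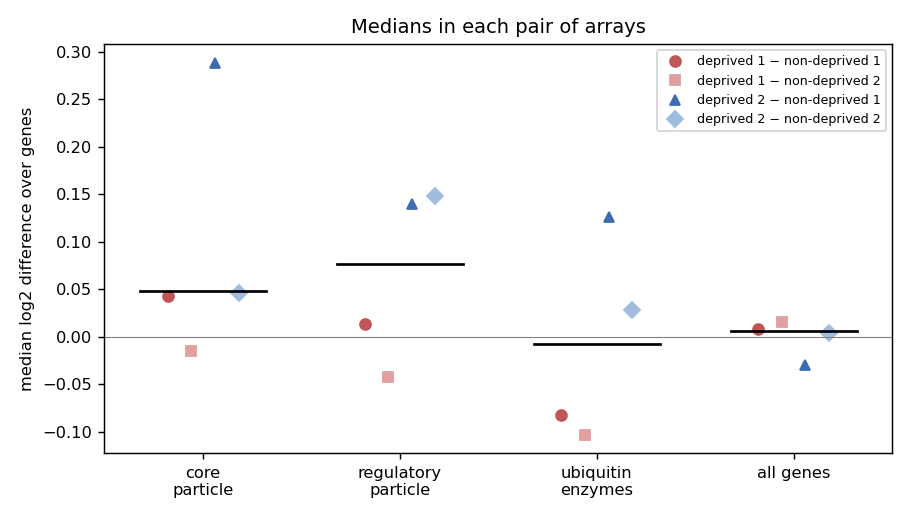
Median log2 difference over the tested genes (vertical axis) of the core particle, regulatory particle, ubiquitin enzymes and all genes, for every pairing of 1 deprived with 1 non-deprived array (symbols), with the median of the fitted log2 fold changes as a black line. Pairs with deprived array 2 lie above pairs with deprived array 1 in all 3 sets, and all genes stay between -0.030 and 0.016.

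The pairs of arrays show the same dependence in values. The regulatory particle median was 0.14 and 0.15 in the pairs of deprived array 2 with non-deprived arrays 1 and 2. It was 0.013 and -0.043 in those of deprived array 1. For the core particle the pairs gave 0.29 and 0.046 with deprived array 2 and 0.042 and -0.015 with deprived array 1. For the ubiquitin enzymes they gave 0.13 and 0.028, then -0.082 and -0.10. Pairs that share an array are not independent of each other.

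Probe sets of the same gene were compared where more than 1 was tested, which held for 10 members. In 4 of them, Psmd11, Ube2h, Ube2k and Ube2z, the log2 fold changes differed by over 0.5 (40% of the 10, against 35.3% of 921 genes in all). Ube2h, an E2 of the CTLH ligase, gave -0.11 ± 0.21 at its brightest probe set and -0.96 ± 0.32 at the dimmer one (limma unadjusted p = 0.011, adjusted p = 0.59). The dimmer probe set had 199 and 377 in deprived and 524 and 677 in non-deprived cortex, without overlap. Ube2z, an E2 charged by the E1 Uba6, gave -0.19 ± 0.19 and -0.94 ± 0.38 (unadjusted p = 0.029, adjusted p = 0.83). Its dimmer probe set had 133 and 263 in deprived and 359 and 489 in non-deprived cortex. Psmb1, Psmb5, Psmc3, Ube2d2a and Ube2o differed by at most 0.18 between probe sets, and Ube2d3 gave 0.025 and -0.42. The brightest probe set of 6 members carries the array maker's mark for probes shared within a sequence family (f_at), and signals of related transcripts may be mixed there. Other marks of the maker stand on the brightest probe sets of Ube2k (g_at), of Ube2c, Psmd9 and Ube2w (r_at) and of Psmb5 (s_at).

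**Figure D4:**
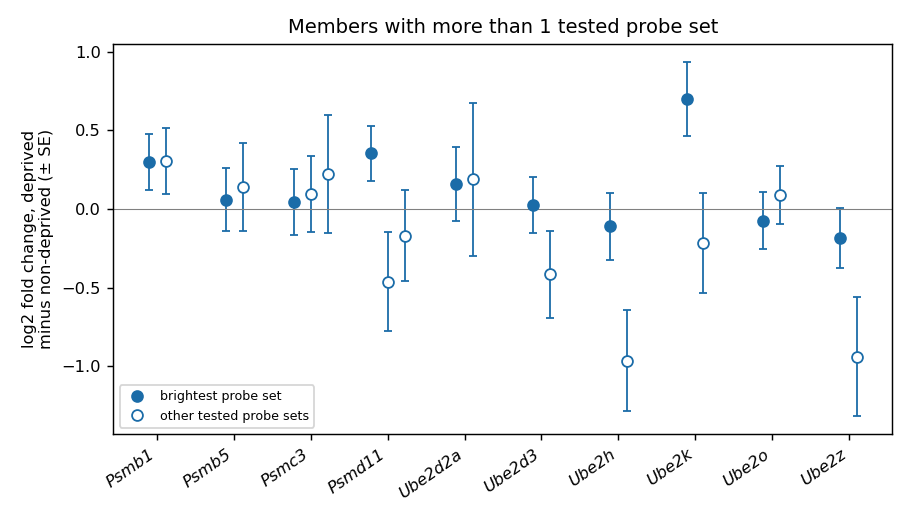
Log2 fold change (deprived minus non-deprived, vertical axis) at each tested probe set of the 10 genes with more than 1; filled points are the brightest probe set, open points the others, and bars are ± 1 SE (limma, 2 arrays per group). Ube2k, Psmd11, Ube2d3 and Ube2o have probe sets on both sides of 0. The dimmer probe sets of Ube2h and Ube2z lie near -0.95 while their brightest lie near 0.

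Genes up and down the same pathway, listed by function, also gave no calls. Of 4 tested E1 subunits, 5 ubiquitin-like modifiers, 34 E3 ligases, 22 other deubiquitinases, 9 shuttle and segregase factors and 8 genes of proteasome assembly and regulation, 0 passed in limma. Before adjustment 3 of these 82 genes had a p under 0.05 (3.66%, against 4.92% of all genes), and 7 did with the replicate block (8.54%, against 8.43% of all genes). The E3 list had 22 lower and 12 higher genes with a median of -0.08, and the deubiquitinases 12 lower and 10 higher with a median of -0.032. Usp22, the deubiquitinase of the SAGA coactivator, had 236 and 286 in deprived and 549.7 and 877 in non-deprived cortex. The groups did not overlap and the log2 fold change was -1.24 ± 0.30 (SE; adjusted p = 0.27, or 0.054 with the replicate block). Bag6, a chaperone that directs misfolded proteins to the proteasome, had 1293 and 1275 in deprived and 1706 and 1781 in non-deprived cortex (-0.42 ± 0.17, adjusted p = 0.83). Rnf2, a Polycomb ligase, gave 0.92 ± 0.40 (adjusted p = 0.89) with overlapping arrays. The activity-regulated ligase Ube3a gave -0.031 ± 0.45. Nfe2l1 and Nfe2l2, the factors named with the promoters, gave -0.11 ± 0.17 and -0.43 ± 0.45. The tested E1 subunits were Uba3, Uba7, Sae1 and Nae1, which serve ubiquitin-like modifiers. The E1 Uba1, which activates ubiquitin itself, was not analysed here. Of 4 listed ubiquitin genes 0 were matched.

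Summed markers of tissue makeup and controls of RNA quality differed between the groups in part. The 3 matched of 5 neuron markers summed to signals of 19654 and 23239 on the deprived arrays and 23978 and 27376 on the non-deprived arrays, lower on both deprived arrays. The 2 matched of 3 markers of cortical glutamatergic neurons also summed lower, at 1083 and 1064 against 1364 and 1896. The 5 matched of 6 oligodendrocyte markers summed higher, at 12402 and 11174 against 10394 and 9156. Bright genes weigh most in such sums. Singly, the groups overlapped for Stmn2, Neurod6, Mbp, Mag and Cnp, and did not for Snap25, Nefl, Camk2a, Mog and Mobp. Sums for 6 astrocyte, 5 microglia, 5 endothelial, 3 choroid plexus and 2 red cell genes overlapped between the groups, no matched marker stood at 0 on any array, and 0 markers passed singly. The choroid plexus sum ran from 97.0 to 587 on the deprived arrays and from 151 to 382 on the non-deprived arrays. The ratio of 5′ to 3′ signal, which falls with RNA degradation, was 0.544 and 0.463 for actin in deprived and 0.638 and 0.632 in non-deprived cortex, and 0.745 and 0.689 against 0.875 and 1.07 for Gapdh. The transferrin receptor did not follow these, with 0.269 and 0.474 in deprived and 0.270 and 0.0758 in non-deprived cortex, which overlapped. The part of these shifts in the values above was not tested. In pooled tissue, fewer cells of a type and less RNA per cell cannot be told apart.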

How the data were processed

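The authors deposited MAS5 signal intensities on a linear scale, 1 per probe set and array, as the submitters' processing notes name the tool; its version and the detection calls are not used here. Arrays were scaled to a common 2% trimmed mean, and log2(signal + 60.6) was taken, 60.6 being the 20th percentile of the mean signals. The 66 control probe sets and those with a mean signal under 142.9 (the 40th percentile) were left out, which kept 7458. The R package limma (3.58.1, under R 4.3.3) fitted a linear model with eBayes and a trend and tested deprived minus non-deprived values on both sides, p-values were adjusted by Benjamini-Hochberg over all 7458, and the threshold was 0.05. Residual degrees of freedom were 2, raised to 11.6 by the prior. An exact permutation test of 2 arrays against 2 cannot go below p = 0.333. The fit was tested on simulated data.

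Symbols came from the platform's annotation table. Pathway and marker lists were matched by symbols updated through Entrez identifiers in RefSeq (GRCm38.p6). Members, lists and tests were chosen with earlier results of these data known. Named members were fixed genes, those at an unadjusted p under 0.05, the 6 lowest and highest, the 2 brightest of each role and those whose probe sets differed by over 0.5. The series' design text speaks of added cross-animal comparisons. This was taken to mean that same-numbered arrays share animals, which the labels do not state. The deviations of such arrays from group means correlated with r = 0.27, which does not by itself show shared animals. On that reading of the design text a fit with the replicate block was run beside the main one, which does not use the pairing. Other alternatives changed the pseudocount, filter, scaling, variance trend and arrays used.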

Additional observations from a re-analysis of the deposited data

How the results depend on the processing

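No member passed an adjusted p of 0.05 under any alternative run, nor one of 0.2 in the main fit. At an unadjusted p under 0.05 there was 1 member, 2 after quantile normalization and 2 with the replicate block, and between 0 and 6 with an array left out. Those without deprived array 1 were Ube2k, Psmd5, Psmd11, Psmb1, Psma6 and Psmb6. Of all 7458 tested probe sets, 273 lower and 132 higher reached that level in the main fit. After quantile normalization these were 284 and 200, and with the replicate block 424 and 266. A changed member count therefore does not single out these genes. With an array left out the median of the core particle ran from 0.014 to 0.23, that of the regulatory particle from -0.0099 to 0.14 and that of the ubiquitin enzymes from -0.093 to 0.035; in such a fit the spread of the single array left is taken from the other group. Other settings moved these medians by less than the spread between arrays. Over 26 named members the sign turned in 22 values and held in 309, and none that turned had moved by over 2 standard errors. Neither the main fit nor the replicate block gave a call at an adjusted p, so there was no call to change.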

Other observations

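The inducible proteasome subunits Psmb8 and Psmb9, which replace proteolytic core subunits under interferon, were left out of the gene set and too dim to test. Psmb8 had signals of 263 and 119 in deprived and 47.0 and 33.9 in non-deprived cortex, so both deprived arrays were higher. Psmb9 had 73.7 and 35.8 in deprived cortex and at most 43.7 in non-deprived cortex, and the groups overlapped. Ube2l6, the E2 for the interferon-induced modifier Isg15, was also too dim to test, with 56.7 and 138 in deprived and 57.8 and 44.8 in non-deprived cortex. The other members too dim to test were Psmc3ip, Psmc4, Psmd2, Psmd10, Ube2f, Ube2t, Ube2v2 and Ube2w, with mean signals from 15.9 for Ube2t to 141 for Ube2v2.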
